A study of Mus musculus with 8 samples.

Results

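The genes described here are 37 genes of the cell cycle and of DNA replication, taken as a list and found on the array by gene symbol or older synonym. They were represented by 61 of the 41174 probes on the array and made up 37 of the 21441 named genes. Their level was compared between livers of miR-223KO mice and WT mice. All 4 miR-223KO and all 4 WT samples were labelled male and C57BL/6J, and both genotypes were fed a high-fat diet for 3 months, so the contrast is one of genotype under the diet, with no normal diet in it. The labels used here give neither an age nor the cells in which the allele is missing, and nothing in them ties every sample to a mouse of its own. A p-value therefore speaks only of the scatter among the samples, which may be technical. Each liver RNA was labelled with Cy5 and set against a commercial mixed mouse RNA labelled with Cy3, on an Agilent 2-colour array, with no dye swap. Every value below is therefore a log2 ratio of liver over that common RNA, or a difference between genotypes of such ratios. The comparison asks how cell cycle gene expression in fat-fed liver differs with and without miR-223.

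A dividing cell passes from G1 into S phase when D and E cyclins activate their kinases and E2F transcription factors switch on the genes of DNA synthesis. Replication origins are licensed by CDC6 and CDT1, which load the MCM helicase, and forks then need the sliding clamp PCNA and a supply of nucleotides. Entry into mitosis depends on CDK1 with cyclins A and B, and its progress on Polo and Aurora kinases, the spindle checkpoint and kinesin motors, while CDKN1A (p21) inhibits the cyclin-dependent kinases. Most hepatocytes of an adult liver are out of the cycle, and they can re-enter it after injury or loss of tissue. miR-223 is a microRNA best known from neutrophils and macrophages, and a microRNA recognises messenger RNAs mainly through its seed near the 5′ end. The mature strand that miR-223KO mice are named for is shown from RefSeq (chrX:96242884-96242905, plus strand, GRCm38.p6), with the seed at bases 2 to 8 in capitals. The microRNA itself was not analysed here, so its loss was not checked in these samples.
mmu-miR-223-3p: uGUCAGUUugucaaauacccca

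Between 49.5% and 69.8% of spots were well above background in Cy5, the liver channel, and no spot was saturated. Of the hepatocyte marker genes on the array, 14 of 14 were well above background on all 8 arrays. The arrays lay on 2 slides, each with 2 miR-223KO and 2 WT samples, so each difference could also be read within a slide. The number of arrays limits the precision of a mean, and signal over background limits what a dim probe can show. Over the 16755 genes and unnamed probes tested, 1 was higher (0.00597%) and 1 was lower (0.00597%) in miR-223KO than in WT livers after adjustment in limma. These were the protease Ctse and the transporter Slco1a1, and no cell cycle gene was among them. Unadjusted p was under 0.05 for 783 of them (4.67%), and 517 had genotypes whose values did not overlap (3.09%).

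Most of the cell cycle genes were measurable in these livers, but 5 of them, the mitotic kinases Cdk1 and Aurkb included, were not. Testing required a probe with clear Cy5 signal over background on 4 or more of the 8 arrays, and 32 of the 37 members passed (86.5%), against 14695 of 21441 named genes (68.5%). These shares describe only what the array could see, because passing depends on the level itself. On all 8 arrays, 22 of 37 members had a probe well above background (59.5%), against 54% of named genes. Counted by probe, 26 of 61 were well above background on all 8 arrays (42.6%) and 13 on 0 arrays (21.3%). Shares by probe were not computed over the whole array. The 5 members not measurable were Cdc6, which loads the MCM helicase, Ccnb1 (cyclin B1), Cdk1, its kinase partner, Aurkb, the kinase of the chromosomal passenger complex, and Bub1b, a spindle checkpoint protein. No probe of Ccnb1 or Aurkb was well above background on any array of either genotype. Cdk1 was well above background on 1 miR-223KO and 1 WT array by its best probe, and Cdc6 and Bub1b each on 0 miR-223KO arrays and 1 WT array. For these genes the array gives at most an upper bound on the level, and only where a probe reports its transcript, which was not tested. No fold change is given for them. The mixed reference RNA did not reveal Aurkb either, with 0 of 8 arrays in Cy3, whereas the best probe of Cdk1 was well above background in Cy3 on 5 of 8 arrays. In Cy3 the best probe of Ccnb1 was well above background on 1 of 8 arrays, that of Cdc6 on 2 and that of Bub1b on 4.

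Detection was not equally firm among the tested members. E2f2, Kif11 and Top2a stood just inside the limit, on 2 miR-223KO and 2 WT arrays each, and Cdk1, on 2 of 8 arrays in all, just outside it. Another 7 members were seen on more than 4 but not all arrays. Among these, Mcm2 was well above background on 4 miR-223KO but 2 WT arrays, and Mki67 on 4 miR-223KO and 3 WT arrays by its best probe. The number of members seen also differed between arrays. At least 1 probe was well above background for 32, 28, 32 and 30 members in the miR-223KO samples, and for 33, 33, 27 and 24 members in the WT samples. The lowest numbers came from WT replicates 3 and 4, and WT replicate 4 was also the array with the lowest Cy5 share over all spots (49.5%). Its part in the results below was not tested beyond leaving the sample out.

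**Figure D1:**
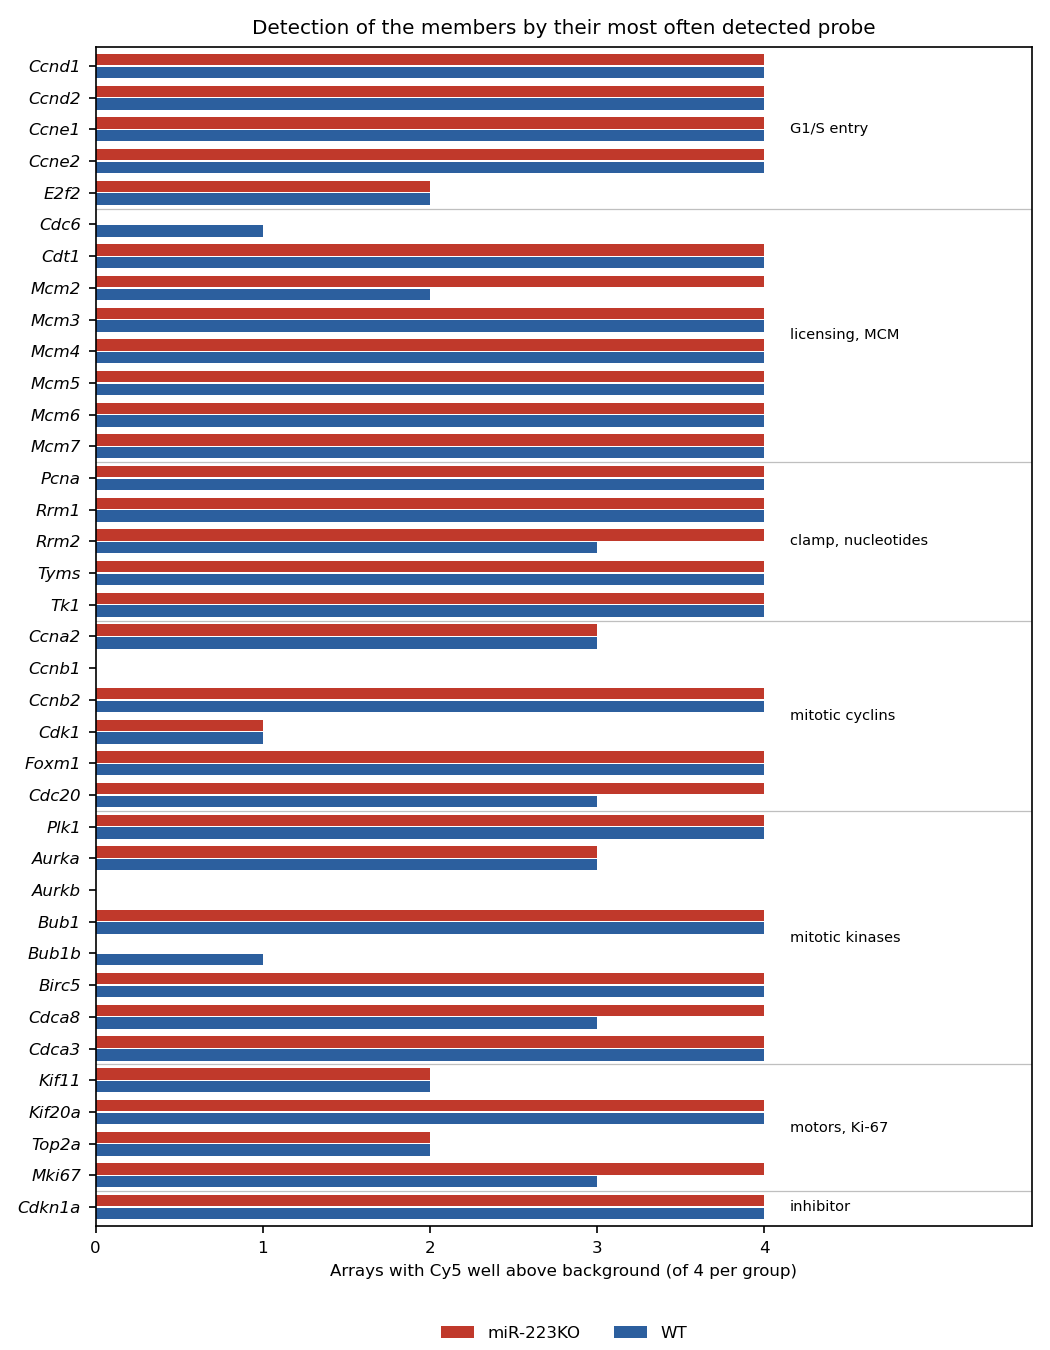
Number of arrays, of 4 per genotype, on which the most often detected probe of each of the 37 members was well above background in Cy5 (horizontal axis), by gene and role (vertical axis). Bars for Ccnb1 and Aurkb are absent because no probe of these genes was well above background on any array, and Cdk1 was seen on 1 array of each genotype.

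None of the 32 tested members passed the test in either direction. Of these, 15 were higher and 17 lower in miR-223KO than in WT livers by sign alone, and the adjusted p-values of limma ran from 0.98 to 1.00. The median log2 fold change of the members was -0.02, beside -0.01 over all genes tested, and the lower and upper quartiles of the members were -0.22 and 0.08, beside -0.16 and 0.14. Single members ranged from -0.47 for Mcm6 to 0.36 for Mcm2, and 22 of 32 differed by less than 0.25 in size. Only 1 member, Ccne1, had an unadjusted p under 0.05 and genotypes that did not overlap, a share of the members close to the 4.67% and 3.09% of all genes. The median standard error of a member was 0.19, so a difference of the size of most of these values could not be told from 0 with 4 samples per genotype. The 95% intervals reached from -0.96 to 0.77 across members, that is from 1.94-fold lower to 1.70-fold higher. They hold for the probe and processing used here and do not bound the difference under other choices. In the authors' deposited table Ccna2 is at -0.85, outside its interval here of -0.58 to 0.18. Mcm2 is at 0.87 in that table, above its interval here of -0.05 to 0.77. In bulk liver, fewer cells of a type and less RNA per cell cannot be told apart.

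As a list, the members differed little between samples. Their mean log2 ratio, taken relative to all genes on the same array, was -0.05, -0.08, 0.04 and -0.09 in the miR-223KO samples, against 0.04, 0.01, -0.05 and -0.04 in the WT samples. The genotypes overlapped, with a mean of -0.05 ± 0.06 in miR-223KO and -0.01 ± 0.04 in WT (SD, n = 4 each). Between samples of one genotype a typical member varied with an SD of 0.19 in miR-223KO and 0.25 in WT. Over all genes tested the same medians were 0.26 in miR-223KO and 0.27 in WT. Within slide 1 the median difference of the members was -0.04, and within slide 2 it was -0.03. Gene by gene, 15 of 32 members had the same sign in both slides, a share that was not computed over all genes tested.

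**Figure D2:**
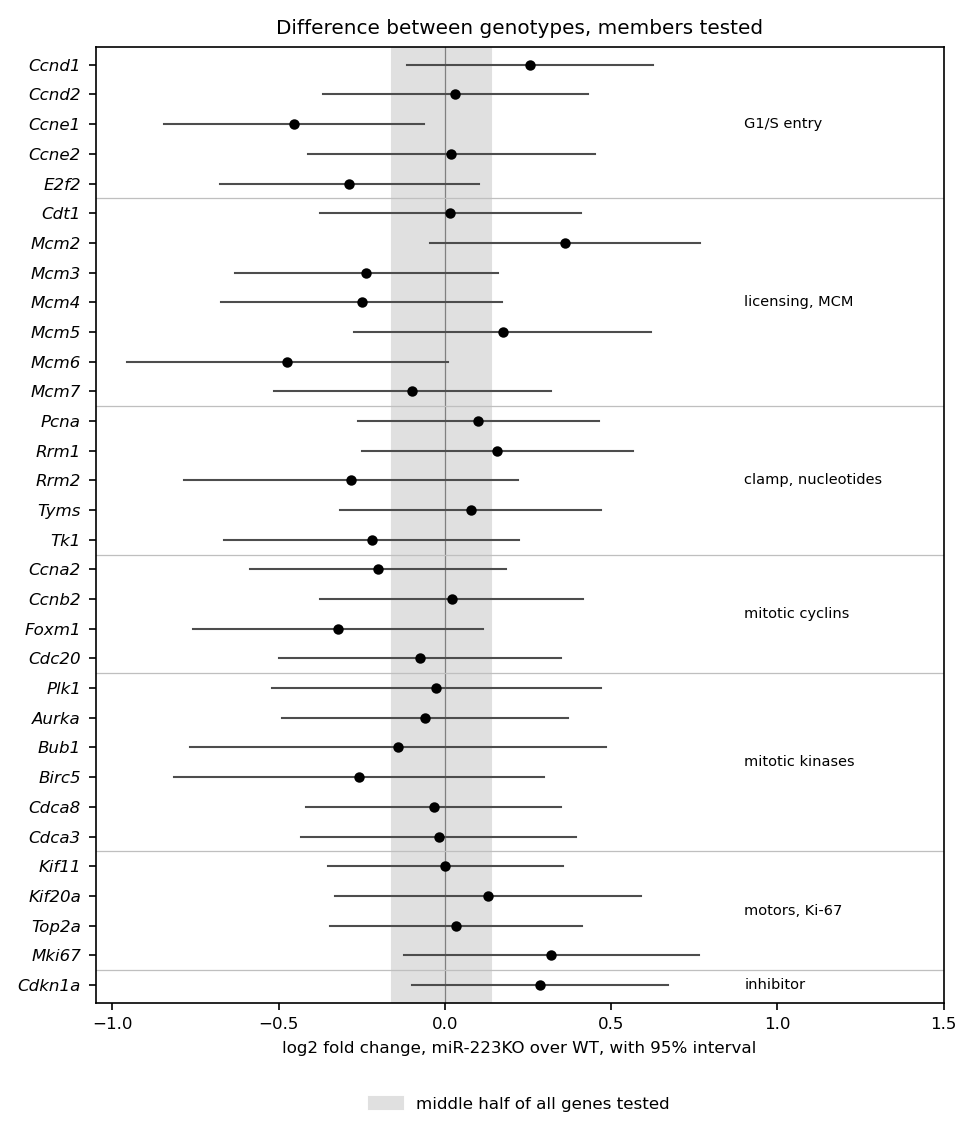
Log2 fold change of each of the 32 tested members, miR-223KO over WT (points, horizontal axis), with its 95% interval (lines), by gene and role (vertical axis). The grey band spans the lower to the upper quartile of all genes tested, from -0.16 to 0.14, and only the interval of Ccne1 leaves out 0.

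Among the regulators of S-phase entry, the 5 tested genes had a median difference of 0.02, with 3 higher and 2 lower by sign. Ccnd1 (cyclin D1), the cyclin that couples growth signals to the cycle, had log2 ratios of 0.52, 0.17, 0.51 and 0.23 in miR-223KO livers, against 0.12, 0.03, 0.04 and 0.20 in WT livers. All but 1 of the miR-223KO values lay above the highest WT value. The log2 fold change was 0.26 with a standard error of 0.17 (95% interval -0.11 to 0.63, limma adjusted p = 0.98), and it was 0.27 within slide 1 and 0.25 within slide 2. An exact two-sided permutation test of Ccnd1 gave p = 0.0571, where the smallest p that 4 against 4 samples allow is 0.0286, and 12 members were tested in this way. Ccnd2 (cyclin D2) differed by 0.03 and Ccne2 (cyclin E2) by 0.02, each with an interval that reached about as far below 0 as above it. A second Ccnd2 probe that passed the filter differed by 0.24, with a standard error of 0.22 when every probe was fitted on its own. A brighter Ccnd2 probe differed by 0.34 but was left out, because flagged spots left 2 miR-223KO and 3 WT values. E2f2, an activating E2F factor, differed by -0.29 with a standard error of 0.18 and was near background.

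Ccne1 encodes cyclin E1, the partner of CDK2 at the start of S phase, and it was the member with the lowest p. The probe used for it, the brighter of a pair, had log2 ratios of -0.13, 0.43, 0.30 and 0.34 in miR-223KO livers, against 0.65, 0.88, 0.59 and 0.63 in WT livers. Every miR-223KO value lay below every WT value, and miR-223KO replicate 1 was the lowest. Means were 0.24 ± 0.25 in miR-223KO and 0.69 ± 0.13 in WT (SD, n = 4 each). The log2 fold change was -0.45 with a standard error of 0.18 (95% interval -0.84 to -0.06), an unadjusted p of 0.0256 and a limma adjusted p of 0.98, so it did not pass the test. The exact permutation p of 0.0286 is the smallest that this number of samples can give and restates that the genotypes did not overlap, the ground on which per-sample values of Ccne1 are given. Within slide 1 the difference was -0.62, and within slide 2 it was -0.29. Cy5 alone accounted for -0.28 of it, and the Cy3 signal of the common RNA differed by 0.17 the other way.

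The second Ccne1 probe gave the opposite sign on the same arrays. Its log2 ratios were 0.64, 0.09, -0.13 and 1.07 in miR-223KO livers, against -0.05, 0.27, -0.01 and -0.22 in WT livers. Here miR-223KO replicates 1 and 4 lay above all WT values, and the other miR-223KO values lay within the WT range. The difference was 0.42 with a standard error of 0.24 and an adjusted p of 0.985 when every probe was fitted on its own in limma. With the Ccne1 probes averaged, the log2 fold change was -0.02. Both probes were well above background in Cy5 and Cy3 on all 8 arrays. Their first 30 bases, of 60 each, are shown because the reading of Ccne1 depends on which is used. Ccne1 lies on chromosome 7, and neither probe was placed in an exon or UTR because no transcript sequence was used here.
Ccne1 probe A_51_P408946: gcatgtcctgccttcatgaactcttatttt
Ccne1 probe A_52_P796682: ttattgaatgctaagtgttttaactataag

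The MCM helicase is a ring of MCM2 to MCM7, and the sign of the difference was not the same for all of its subunits. Of the 7 tested licensing genes, 3 were higher and 4 lower by sign, with a median of -0.10. Mcm2 had log2 ratios of -0.14, -0.21, 0.31 and 0.38 in miR-223KO livers, against -0.21, -0.24, -0.46 and -0.20 in WT livers. The miR-223KO samples of slide 2 stood above the rest, while those of slide 1 lay at the level of WT. Its log2 fold change was 0.36 with a standard error of 0.19 (95% interval -0.05 to 0.77, limma adjusted p = 0.98, exact permutation p = 0.0571), and it was 0.05 within slide 1 against 0.67 within slide 2. Mcm6 went the other way by sign. It had -0.26, 0.13, -0.16 and 0.12 in miR-223KO livers, against 0.91, 0.67, 0.35 and -0.20 in WT livers. The WT samples of slide 1 were the highest and WT replicate 4 lay among the miR-223KO values. The log2 fold change of Mcm6 was -0.47 with a standard error of 0.23 (95% interval -0.96 to 0.01, limma adjusted p = 0.98, exact permutation p = 0.143), and it was -0.85 within slide 1 against -0.09 within slide 2.

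The remaining subunits overlapped between genotypes. Mcm4 had -0.43, -0.23, 0.07 and -0.48 in miR-223KO livers, against 0.07, 0.30, -0.37 and -0.07 in WT livers, and differed by -0.25 with a standard error of 0.20. Mcm5 had -0.09, -0.14, 0.57 and -0.08 in miR-223KO livers, against 0.23, -0.34, -0.31 and -0.02 in WT livers, and differed by 0.17 with a standard error of 0.21. Its miR-223KO mean rested on replicate 3, the only one above 0. Mcm7 had -0.51, -0.25, -1.04 and -0.38 in miR-223KO livers, against -0.43, -0.45, -0.55 and -0.34 in WT livers, and differed by -0.10 with a standard error of 0.20. The WT values of Mcm7 lay close together and miR-223KO replicate 3 lay below all others. Exact permutation p-values were 0.257 for Mcm4, 0.514 for Mcm5 and 0.800 for Mcm7. Cdt1, the licensing factor that brings MCM2 to MCM7 to origins, differed by 0.02.

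Mcm3 was measured by a pair of probes that passed the filter, again with opposite signs. The brighter one had 0.12, 0.06, 0.10 and 0.46 in miR-223KO livers, against 0.54, 0.21, 0.68 and 0.25 in WT livers. All miR-223KO values but that of replicate 4 lay below the WT values. This probe gave a log2 fold change of -0.24 with a standard error of 0.19 (limma adjusted p = 0.98, exact permutation p = 0.171). The other probe had -0.06, -0.22, 0.71 and -0.14 in miR-223KO livers, against 0.06, -0.39, 0.13 and -0.06 in WT livers, a difference of 0.14 with a standard error of 0.22. Replicate 3 was the highest miR-223KO sample on that probe but not on the brighter one. The first 30 of 60 bases of each Mcm3 probe are given because they read different stretches of sequence.
Mcm3 probe A_52_P364776: aggaggaagactcatgccaaggatggagag
Mcm3 probe A_51_P324934: aagctttctttgcgattagactagtatgta

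The clamp and the enzymes of nucleotide supply had a median difference of 0.08, with 3 of 5 higher and 2 lower by sign. Pcna, the sliding clamp that holds DNA polymerases on their template, varied little between samples. It had -0.01, -0.22, 0.06 and -0.09 in miR-223KO livers, against -0.08, -0.21, -0.07 and -0.31 in WT livers. The ranges overlapped over most of their length, and the log2 fold change was 0.10 with a standard error of 0.17 (95% interval -0.26 to 0.46, limma adjusted p = 0.99, exact permutation p = 0.314). Rrm1 and Rrm2 encode the large and small subunits of ribonucleotide reductase and differed by 0.16 and -0.28, with standard errors of 0.19 and 0.24. Rrm2 was the more variable in WT livers, from -0.29 to 0.94, against -0.12 to 0.41 in miR-223KO livers. Tyms, which makes thymidylate, differed by 0.08, and Tk1, the thymidine kinase of S phase, by -0.22 with a standard error of 0.21.

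The 4 tested genes of mitotic entry had a median difference of -0.14, 1 higher and 3 lower by sign. Foxm1, the forkhead factor that drives genes of G2 and mitosis, had 0.33, 0.39, 0.58 and 0.64 in miR-223KO livers, against 1.09, 0.39, 0.57 and 1.16 in WT livers. WT replicates 1 and 4 stood above all other samples and the rest overlapped, so its log2 fold change of -0.32 had a standard error of 0.21 (limma adjusted p = 0.98). Ccna2 (cyclin A2), active in S phase and early mitosis, had -0.14, -0.29, -0.11 and -0.51 in miR-223KO livers, against -0.16, -0.23, 0.18 and -0.03 in WT livers. It differed by -0.20 with a standard error of 0.18, on a probe well above background on 3 miR-223KO and 3 WT arrays. Ccnb2 (cyclin B2) differed by 0.02 and Cdc20, an activator of the anaphase-promoting complex, by -0.07.

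All 6 tested kinases, checkpoint and passenger genes were lower by sign, but by small amounts, with a median of -0.05 and a lowest value of -0.26. Their median was -0.20 within slide 1 and -0.006 within slide 2. Plk1, Aurka, Bub1, Cdca8 and Cdca3 changed sign between slides, so the shared sign did not hold in both. Plk1, the Polo-like kinase of mitosis, differed by -0.03 overall but by 0.42 within slide 1 and -0.47 within slide 2. Aurka, the Aurora kinase of the centrosome and spindle, differed by -0.06, with miR-223KO values between -0.23 and -0.12 and WT values between -0.44 and 0.44. Bub1, a checkpoint kinase, had 0.20, 0.22, 0.23 and 0.10 in miR-223KO livers, against -0.11, 1.48, -0.30 and 0.23 in WT livers. WT replicate 2 alone accounted for the higher WT mean, and the log2 fold change of -0.14 had a standard error of 0.29. This Bub1 probe had a mean log2 signal of 10.61, but the other Bub1 probe was well above background on 0 of 8 arrays in Cy5 and in Cy3. Which of them reads Bub1 was not tested. Birc5 (survivin), a passenger protein and apoptosis inhibitor, had 0.00, 0.07, 1.20 and 0.05 in miR-223KO livers, against 0.30, 0.68, 1.02 and 0.36 in WT livers. In both genotypes replicate 3 was the highest, and the log2 fold change was -0.26 with a standard error of 0.26. Without miR-223KO replicate 3 the log2 fold change of Birc5 was -0.55 (limma unadjusted p = 0.0211, adjusted p = 0.999). With any other single sample left out, that of Birc5 ran from -0.35 to -0.11 (limma unadjusted p from 0.234 to 0.682). Cdca8 (borealin), another passenger protein, differed by -0.03, and Cdca3, which promotes entry into mitosis, by -0.02.

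**Figure D3:**
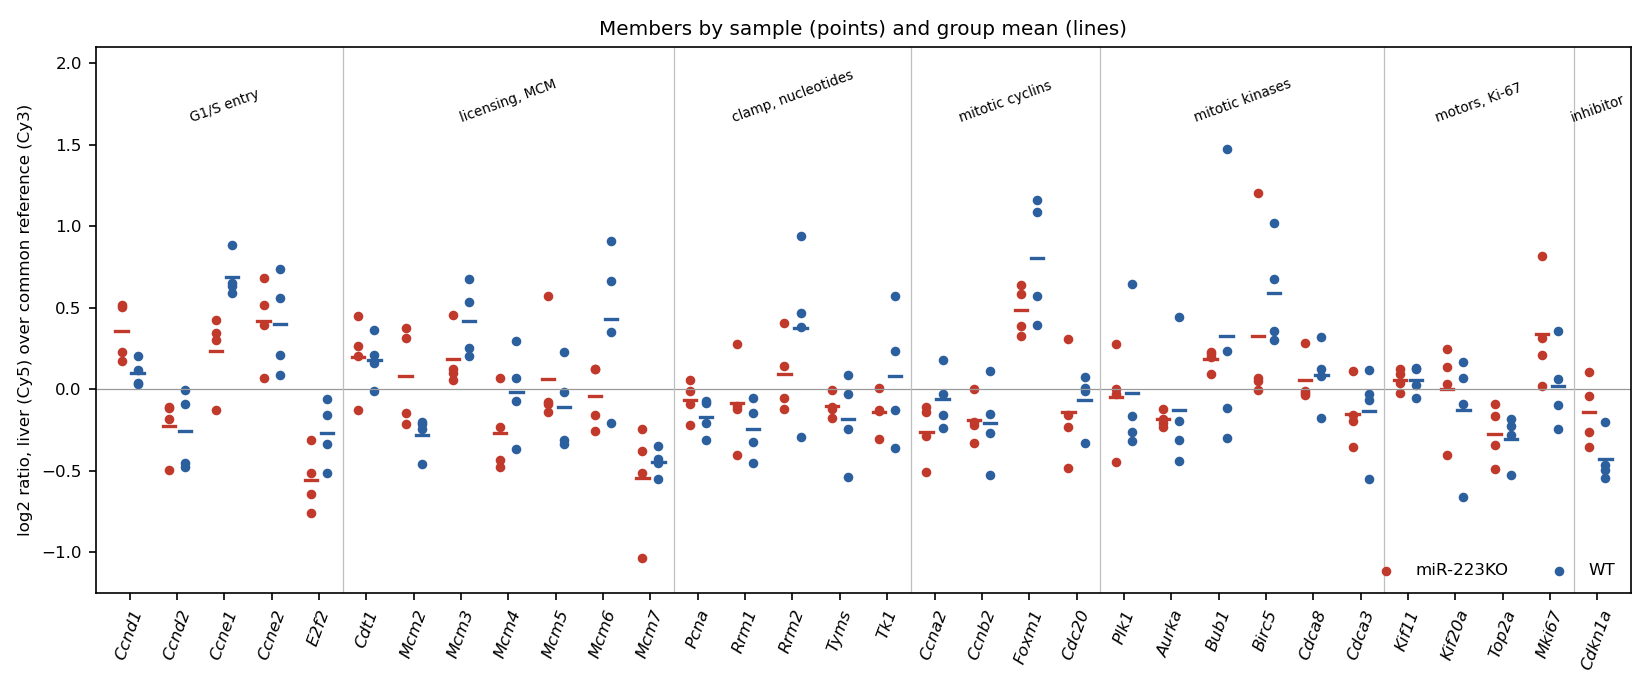
Log2 ratio of liver (Cy5) over common reference RNA (Cy3) for the 32 tested members (horizontal axis, by role), with 1 point per sample and a line at the mean of each genotype. The genotypes overlap for every member but Ccne1. The highest points are Bub1 (1.48 in WT replicate 2) and Birc5 (1.20 in miR-223KO replicate 3), and the lowest is Mcm7 (-1.04 in miR-223KO replicate 3).

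The 4 genes of motors, topoisomerase and Ki-67 were all higher by sign, with a median of 0.08. Their median was 0.28 within slide 1 and -0.03 within slide 2, so the shared sign did not hold in both slides. Mki67 encodes Ki-67, the protein most used to stain cycling cells. Its brighter probe had log2 ratios of 0.82, 0.21, 0.32 and 0.02 in miR-223KO livers, against -0.24, 0.06, 0.36 and -0.09 in WT livers. Only miR-223KO replicate 1 lay above the highest WT value. The log2 fold change was 0.32 with a standard error of 0.21 (95% interval -0.12 to 0.76, limma adjusted p = 0.98, exact permutation p = 0.229), and it was 0.60 within slide 1 against 0.04 within slide 2. The other Mki67 probe had 0.55, -0.45, 0.65 and 0.09 in miR-223KO livers, against -0.10, 0.20, 0.31 and -0.36 in WT livers. It gave 0.20 with a standard error of 0.24, and was well above background on 4 miR-223KO and 2 WT arrays. The first 30 of 60 bases of the Mki67 probes are given because this marker is the one most often read alone.
Mki67 probe A_51_P253808: tgcttccagcaagaggtatgtatcacctga
Mki67 probe A_51_P253803: atactactgctactgcctgagtttaaggaa

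Top2a, the topoisomerase that untangles replicated chromosomes, had -0.16, -0.34, -0.09 and -0.49 in miR-223KO livers, against -0.53, -0.18, -0.22 and -0.28 in WT livers. The values were interleaved, and the log2 fold change was 0.03 with a standard error of 0.18 (limma adjusted p = 0.997, exact permutation p = 0.800). Kif20a, a kinesin of cytokinesis, differed by 0.13 with a standard error of 0.22. Its sign depended on the probe: with flagged spots kept, a brighter probe stood for the gene and the log2 fold change of Kif20a was -0.74 (limma unadjusted p = 0.0152, adjusted p = 0.978). Kif11, the kinesin that pushes spindle poles apart, differed by 0.00 with a standard error of 0.17, at a signal near background. The offset of 50 added in background correction pulls the ratio of a dim probe towards 0, which bears on E2f2, Kif11 and Top2a. It bears on other dim members too, as Ccna2 had a mean log2 signal of 7.29, beside 7.30 for E2f2. Foxm1 stood at 7.40, Cdc20 and Mcm2 at 7.47 and Mki67 at 7.48. With an offset of 16 the log2 fold change of Ccna2 was -0.29.

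Cdkn1a encodes p21, the inhibitor of cyclin-dependent kinases induced by p53, and is the member that opposes the others. It had log2 ratios of -0.26, -0.35, -0.04 and 0.11 in miR-223KO livers, against -0.54, -0.50, -0.46 and -0.20 in WT livers. All WT values but that of replicate 4 lay below every miR-223KO value. The log2 fold change was 0.29 with a standard error of 0.18 (95% interval -0.10 to 0.67, limma adjusted p = 0.98, exact permutation p = 0.0857). It was 0.21 within slide 1 and 0.36 within slide 2, and Cy5 alone gave 0.39. In the authors' deposited table Cdkn1a is at 0.50.

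The choice of probe set the sign of several members. Of the 18 members with more than 1 probe, 11 had probes of opposite sign in the authors' deposited table of log2 fold changes. Among the 5 members with several probes that passed the filter, Ccne1, Mcm3 and Tyms, 3 in all, had probes of opposite sign in the values computed here. Of the 61 probes, 12 differed by 0.5 or more in size in the authors' deposited table, and 5 of these 12 were well above background on at most 2 arrays. Among all 61 probes, 19 were well above background on at most 2 arrays (31.1%). How many of all probes in that table differed by 0.5 or more was not computed, so the 12 cannot be called many or few. The authors' deposited table lists Aurkb at -0.89 and Ccnb1 at -0.52, both from probes that were well above background on 0 of 8 arrays. It lists Cdk1 at 0.70, from a probe well above background on 2 of 8 arrays, which was not tested here. For Foxm1 the authors' deposited table holds 0.56 for a probe seen on 0 of 8 arrays and -0.43 for the probe seen on all 8.

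Several tested probes differed by more in the authors' deposited table than after the background correction used here. In the authors' deposited table Mcm2 is at 0.87, against 0.36 here. Ccna2 is at -0.85 in the authors' deposited table and at -0.20 here. The Mki67 probes are at 0.55 and 1.00 in the authors' deposited table, against 0.32 and 0.20 here. Other values were close, as for Ccnd1 with 0.24 in the authors' deposited table and 0.26 here. That brighter Kif20a probe, at -0.89 in the authors' deposited table, was left out of the test because flagged spots left 3 miR-223KO values and 1 WT value.

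**Figure D4:**
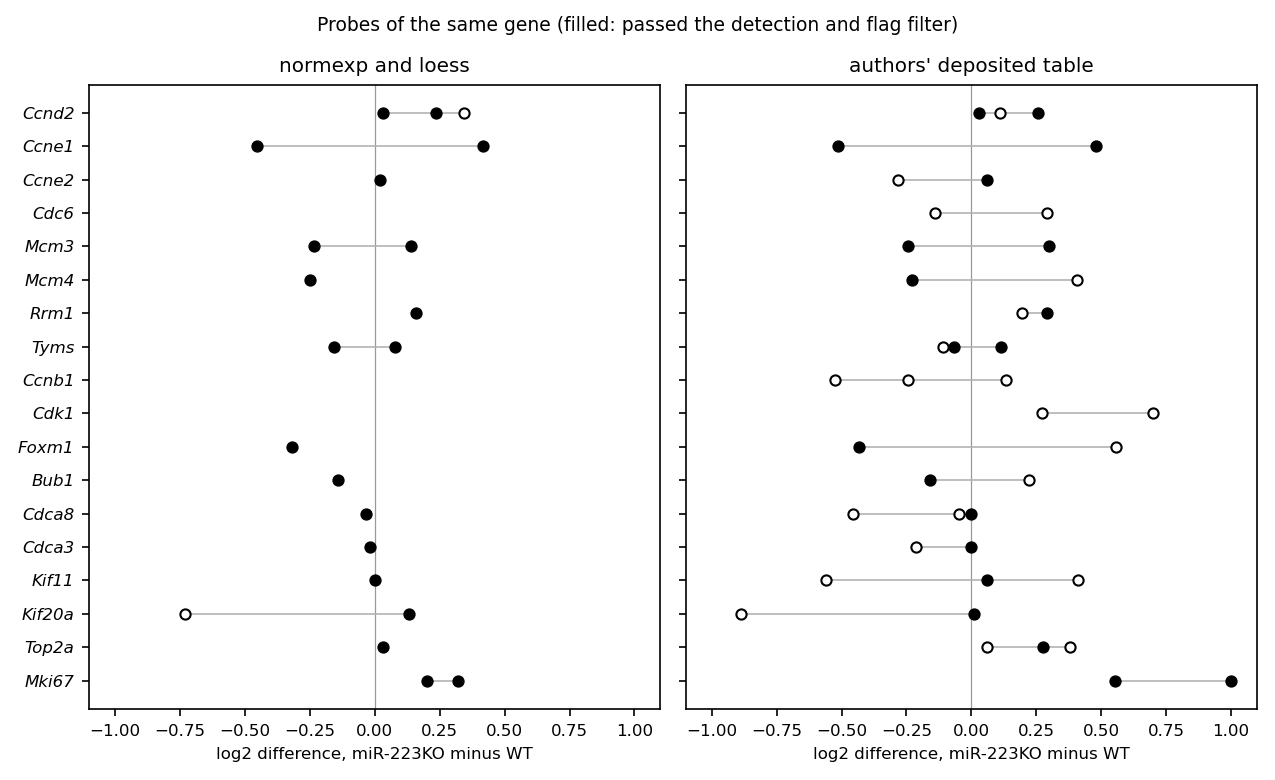
Log2 difference, miR-223KO minus WT, of probes of the 18 members with several probes (horizontal axis; 1 gene per line), from the values computed here for probes well above background on at least 4 arrays (left) and, for every probe, from the authors' deposited table (right). Filled points passed the filter on detection and flags; in the right panel 11 of the 18 genes have points on both sides of 0.

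The promoters of the members carry motifs by which the cell cycle is known to time transcription, and these are described here because the members are otherwise read as a group. The CCAAT box is bound by NF-Y, the cell cycle homology region (CHR) by the MuvB complexes, and E2F sites by E2F factors. For 29 of the 37 members a window of 250 bases was matched, before the first start site that the RefSeq table of promoters lists on GRCm38.p6. Some genes have annotated transcripts that begin farther upstream, so the window reached into the annotated gene for 10 of 29 members (34.5%), against 40.3% of all protein-coding genes. Mcm4, Ccna2, Ccne2, Foxm1, Ccnd1, Ccnd2, Aurkb and Kif20a were not matched. Both strands were searched for CCAAT, for TTTGAA or TTTAAA as the CHR, and for TTTCGCGC, TTTGGCGC, TTTCCCGC or TTTGCCGC as E2F motifs, which may overlap each other. A CCAAT box was present in 22 of 29 members (75.9%), against 36.3% of 17492 protein-coding genes. A CHR match was present in 13 members (44.8%) against 23.7%, and an E2F match in 5 members (17.2%) against 2.41%. By role, the 14 mitotic members had a CCAAT box in 13 (92.9%), a CHR match in 9 (64.3%) and an E2F match in 1 (7.14%). The 14 members of G1 and S phase had a CCAAT box in 9 (64.3%), a CHR match in 4 (28.6%) and an E2F match in 4 (28.6%). At least 2 CCAAT boxes stood before 10 mitotic members (71.4%), against 12% of all protein-coding genes. A match is a description of the letters and not a site shown to be bound.

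**Figure D5:**
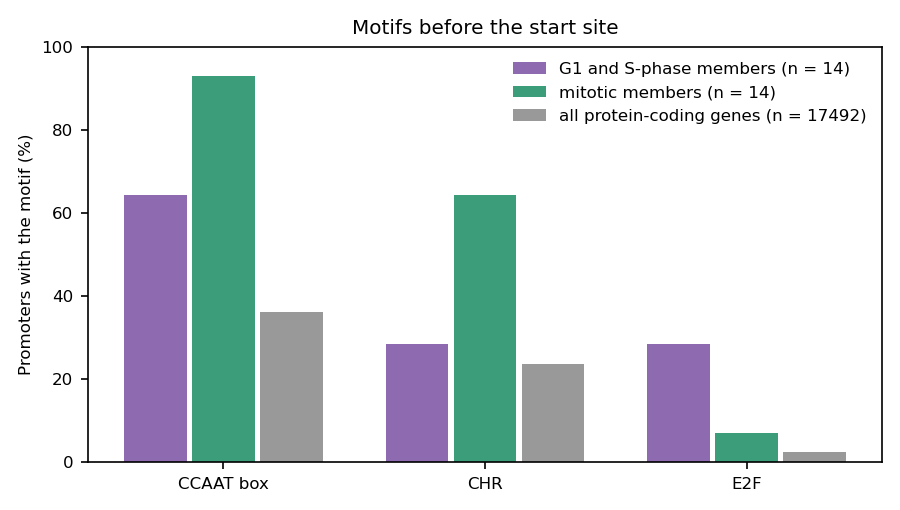
Share of promoters (250 bases before the listed start site, vertical axis in percent) with at least 1 match to each motif (horizontal axis), for 14 members of G1 and S phase, 14 mitotic members and 17492 protein-coding genes. Mitotic members have the highest shares for the CCAAT box (92.9%) and the CHR (64.3%), and members of G1 and S phase for E2F (28.6%).

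Examples of these promoters are given for the members with the lowest difference, the lowest p and the proliferation marker, all on the minus strand of GRCm38.p6. Capitals mark motif matches on either strand, with overlapping matches run together. Before Mcm6 (chr1:128359706-128359955) stand 3 E2F matches and 2 CCAAT boxes. Before Mki67 (chr7:135716451-135716629) stand 3 CCAAT boxes and 2 CHR matches, in a stretch cut short where the annotated gene begins. Before Ccne1 (chr7:38107491-38107740) these letters gave 1 CHR match and no other. Cdkn1a, Cdt1 and Tyms had no match to any of the motifs in this window, and Top2a had the most CCAAT boxes of the members named here, with 6.
Mcm6 promoter: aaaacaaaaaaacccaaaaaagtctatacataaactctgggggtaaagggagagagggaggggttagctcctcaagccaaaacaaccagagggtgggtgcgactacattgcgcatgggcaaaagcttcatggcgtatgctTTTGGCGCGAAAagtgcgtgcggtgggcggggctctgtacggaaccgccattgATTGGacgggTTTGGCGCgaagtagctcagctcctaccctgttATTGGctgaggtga
Mki67 promoter: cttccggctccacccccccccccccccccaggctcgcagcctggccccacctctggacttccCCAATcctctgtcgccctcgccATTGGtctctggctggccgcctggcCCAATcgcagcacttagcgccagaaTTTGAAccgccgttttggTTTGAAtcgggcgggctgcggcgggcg
Ccne1 promoter: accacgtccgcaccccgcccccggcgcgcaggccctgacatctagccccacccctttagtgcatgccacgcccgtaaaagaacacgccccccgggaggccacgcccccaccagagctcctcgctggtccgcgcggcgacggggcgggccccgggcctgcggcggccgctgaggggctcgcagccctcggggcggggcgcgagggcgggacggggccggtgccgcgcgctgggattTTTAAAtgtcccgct

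Genes of the same processes outside the list gave the same kind of result. None of 151 tested genes in lists of G1/S regulators, replication factors, mitotic genes and inhibitors or p53 response genes passed the test of limma. In limma 2 of the 151 had an unadjusted p under 0.05, beside 4.67% of all genes tested. Genotypes did not overlap for 2 replication genes and 2 inhibitors or p53 response genes, all higher in miR-223KO. The same held for 2 higher and 1 lower mitotic gene and for no G1/S regulator, beside 3.09% of all genes tested. Of 22 G1/S cyclins, kinases and pocket proteins, 14 were higher and 8 lower by sign, with a median of 0.06. Lin52, a subunit of MuvB, differed by 0.34 and Cdk4, the kinase of D cyclins, by 0.28, while Myb differed by -0.32 and the histone chaperone Rbbp4 by -0.29. Of 46 other replication genes, 28 were higher and 18 lower by sign, with a median of 0.03. Fen1, the nuclease that trims Okazaki fragments, averaged 0.23 ± 0.08 in miR-223KO and -0.15 ± 0.14 in WT livers (SD, n = 4 each), with genotypes that did not overlap. Its log2 fold change was 0.37 with a standard error of 0.17, an unadjusted p of 0.0430 and a limma adjusted p of 0.98. Rfc5 differed by 0.31 and Rfc2 by -0.41, although both are subunits of the clamp loader that places PCNA, and the histone chaperone Chaf1a differed by -0.31.

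Of 53 other mitotic genes, 31 were higher and 22 lower by sign, with a median of 0.04. Cenpf, a kinetochore protein, averaged 0.37 ± 0.05 in miR-223KO and 0.02 ± 0.15 in WT livers (SD, n = 4 each) and Tubb5, a tubulin, differed by 0.43. Neither overlapped between genotypes, and neither passed the test. Bub3, a checkpoint protein, differed by -0.39, also with genotypes that did not overlap, and Cenpe, a kinetochore motor, by -0.47. Of 30 inhibitors and p53 response genes, 14 were higher and 16 lower by sign, with a median of -0.01. Trp53, which encodes p53, averaged 0.13 ± 0.27 in miR-223KO and 0.62 ± 0.36 in WT livers (SD, n = 4 each), a log2 fold change of -0.49 with a standard error of 0.21, an unadjusted p of 0.0356 and a limma adjusted p of 0.98. Plk3 differed by 0.63, Gadd45b by 0.36 and Ddit4l by -0.26.

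Markers of the cell types that could carry cycling cells also gave no gene past the test, and 9 of 81 tested had an unadjusted p under 0.05 in limma, beside 4.67% of all genes. Macrophage and Kupffer cell markers were higher by sign in 12 of 14, with a median of 0.29 that was 0.51 within slide 1 and -0.05 within slide 2. Their mean log2 ratio, relative to all genes on the same array as for the means of the other lists here, ran from -0.09 to 0.47 in miR-223KO and from -0.40 to 0.42 in WT livers, with Trem2 at 0.57 and Csf1r at 0.54. Endothelial markers were higher by sign in 10 of 12, with a median of 0.17, a mean that ran from -0.02 to 0.17 in miR-223KO against -0.29 to -0.06 in WT livers, and Ptprb at 0.63 and Flt4 at 0.51. Erythroid markers were higher by sign in 1 of 5, with a median of -0.28, a mean that ran from -0.29 to -0.07 in miR-223KO against -0.06 to 0.07 in WT livers, and Epor and Klf1 both at -0.32. Of 15 hepatocyte markers, 6 passed the filter on detection and flags. All 14 on the array were well above background on all 8 arrays, so flags left out the others on it. All 6 were lower by sign, with a median of -0.38 that was -0.16 within slide 1 and -0.81 within slide 2. Their mean ran from 0.33 to 0.79 in miR-223KO against 0.81 to 1.83 in WT livers, the highest in WT replicate 4. Alb was at -0.66 and Serpina1c at -0.68. T, NK and B cell markers were higher by sign in 6 of 13 and had a median of -0.06, with Ncr1 at -0.40 and Ms4a1 at 0.40. Neutrophil markers were higher by sign in 6 of 11 and had a median of 0.02, with Lcn2 at 0.82 and S100a9 at 0.61. Stellate and fibroblast markers were higher by sign in 5 of 12 and lower in 7, with a median of -0.04, and Col1a1 at 0.35 and Pdgfrb at 0.24 had the smallest p. Bile duct markers were higher by sign in 2 of 8 and had a median of -0.07, with Krt7 at -0.58 and Sox9 at -0.36. The part of these cell types in the values of the cell cycle genes was not tested.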

How the data were processed

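Liver RNA of 4 miR-223KO and 4 WT samples was measured on 8 arrays, grouped by the labels. Per the file headers, the arrays were read with Agilent Feature Extraction 12.0.3.1. The deposited scanner files hold spot and background signals as intensity, and a log10 ratio of processed Cy5 over Cy3, per the file headers. The authors' deposited table holds log2 ratios and log2 fold changes. From the median intensities, background was corrected with normexp (offset 50), ratios were normalised by loess within arrays, and controls and flagged spots were left out (limma 3.58.1, R 4.3.3). Of 41174 probes, 28462 were named by accession, 6902 by the authors' table, and 5810 stayed unnamed.

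A probe was tested with Cy5 well above background on at least 4 arrays and at least 3 unflagged values per genotype, and a gene by its brightest such probe. The 2-sided moderated test of limma (lmFit, then eBayes) was adjusted by Benjamini-Hochberg over all 16755 features, at a threshold of 0.05. Intervals are 95%. The procedure was tested on simulated data. The members and lists were chosen with earlier results of these data known. Per-sample values were given for members with separated genotypes or unadjusted p under 0.05, for Cdkn1a, Ccnd1, Mki67, Top2a, Pcna and Mcm2 to Mcm7, and, chosen after their values were seen, for Foxm1, Ccna2, Bub1 and Birc5. From other cell cycle lists the 2 genes with the smallest p in each direction were named, and from marker lists the 2 with the smallest p. Alternatives covered background, normalisation, flags, detection filter, probe choice, slide, replicate block, array weights and left-out samples.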

Additional observations from a re-analysis of the deposited data

Results flagged for a closer look

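In 6 of 64 groups of 4 samples, the highest or lowest sample stood apart from the other 3 by more than Dixon's 95% critical value, and chance alone gives about 1 in 20. Mcm5 was 0.57 in miR-223KO replicate 3, against -0.14 to -0.08 in the other miR-223KO samples. Birc5 was 1.20 in miR-223KO replicate 3, against 0.00 to 0.07 in the others of that genotype. Mcm3 was 0.46 in miR-223KO replicate 4, against 0.06 to 0.12 in the others, and Cdca8 was 0.28 in miR-223KO replicate 1, against -0.03 to -0.01. Plk1 was 0.65 in WT replicate 4, against -0.32 to -0.16 in the other WT samples, and Mcm2 was -0.46 in WT replicate 3, against -0.24 to -0.20. No sample held more than 2 of these values.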

How the results depend on the processing

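Of 23 alternatives, those within a slide gave no adjusted test, and no member passed the test in the others. The lowest adjusted p of a member was 0.83, for Ccna2 and Mcm2 with the authors' log2 ratios, and 14 of 32 members kept their sign throughout. Ccne1 ran from -0.62 to -0.02, the last with its probes averaged, and without miR-223KO replicate 1 no member had an unadjusted p under 0.05. Kif20a was -0.74 with flagged spots kept, and Cdkn1a was 0.50 with the processed signals and with the authors' ratios. Mcm6 ran from -0.85 to -0.09, Mcm2 from 0.05 to 0.87 and Mki67 from 0.04 to 0.60. With median centring the median of the members was 0.047, beside 0.081 over all genes. The median of the G1/S list was 0.18 with the scanner's processed signals and with the authors' ratios and 0.15 with Cy5 alone, and 0.029 to 0.114 when a sample was left out. The median of the mitosis list was -0.038 with Cy5 alone and 0.094 with median centring, and ran from -0.043 to 0.038 when a sample was left out. The median of the list of inhibitors and p53 response genes ran from -0.041 with the authors' ratios to 0.089 with median centring, and from -0.112 to 0.046 when a sample was left out. The median of the replication list was 0.088 with the processed signals and with the authors' ratios, 0.10 with Cy5 alone, 0.11 within slide 2 and -0.044 for genes well above background on all 8 arrays. Over all genes, an offset of 16 gave 2 higher and 2 lower past the test. The lower count was 2 with detection on all 8 arrays and 0 with the processed signals, the authors' ratios, median centring, Cy5 alone or averaged probes. Leaving out a sample gave 0 to 2 higher and 0 to 1 lower. The replicate numbers did not pair the samples, with correlations of same-numbered deviations from -0.02 to 0.06, and the replicate block gave 1 higher and 1 lower. The causes of these shifts were not tested. Signal over background limits what can be said of 5 members without a usable probe and of members near background.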
